A study of Mus musculus with 8 samples.

Results

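The genes examined here encode the subunits of the voltage-gated sodium and calcium channels. They were taken from the annotation as all protein-coding genes whose symbols name a sodium channel alpha subunit (Scn1a to Scn11a), a sodium channel beta subunit (Scn followed by a number and b), a calcium channel alpha1 or alpha2delta subunit (Cacna1 and Cacna2d genes), a calcium channel beta subunit (Cacnb1 to Cacnb4) or one of the gamma subunits Cacng1 to Cacng7. The rule found 39 genes among the 48709 in the count files. No measured value entered the rule. The family was examined by RNA sequencing of the cortex of 4 dcKO_hGFAP-Cre and 4 control mice at postnatal day 3 (P3), all on the C57BL/6J background. In dcKO_hGFAP-Cre mice both copies of the genes for BAF155 and BAF170, scaffolding subunits of the BAF chromatin remodelling complex, are floxed, and the human GFAP promoter drives Cre, which cuts out the floxed DNA (BAF155 fl/fl; BAF170 fl/fl; hGFAP-Cre pos/+). The paper describes controls that also carry Cre, with a floxed and an intact copy of each gene, whereas the labels call the controls wild type. The labels name the tissue as cortex and the methods as dorsal telencephalon (dTel). The paper describes this Cre as prominently active in radial glia of the dTel. Cells of other origin in the dissected tissue may keep both genes, which was not measured here. The mutants die soon after birth.

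Voltage-gated sodium channels open on depolarization and carry the rising phase of the action potential, and each has a single pore-forming alpha subunit with smaller beta subunits beside it. Voltage-gated calcium channels turn depolarization into calcium entry, which triggers transmitter release, dendritic signals and transcription. Their alpha1 subunit forms the pore and sets the current type, the beta and alpha2delta subunits bring it to the membrane, and most of the gamma proteins expressed in brain are known as partners of AMPA-type glutamate receptors. In the newborn cortex Scn2a and Scn3a are the classical sodium channels of immature excitatory neurons, and Scn1a and Scn8a gain importance as neurons mature.

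Total counts per library were 21126713 to 31805395 in control and 22002784 to 32110285 in dcKO_hGFAP-Cre libraries, and a count of 3 in a library equals 0.0934 to 0.142 CPM, a gene's count scaled to a common library size. Every sequencing lane held both groups. Smarcc1, the gene for BAF155, read 144 to 170 CPM in controls and 73.6 to 86.9 CPM in mutants, and Smarcc2, the gene for BAF170, 469 to 500 and 256 to 319 CPM, so both deleted genes were lower in every library labelled dcKO_hGFAP-Cre than in any control. Of the 39 channel genes, 35 passed the filter on low counts and were tested among the 16525 genes that passed it.

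Of the 35 tested channel genes, 12 were lower in dcKO_hGFAP-Cre cortex and 6 were higher, with a Benjamini-Hochberg adjusted p under 0.05 over the 16525 genes tested (quasi-likelihood F test, edgeR). The share lower was 34.3%, beside 18.9% of all genes tested, and the share higher was 17.1%, beside 18.6%, which is close to the background. All mutants lay below all controls in 11 of the 35 tested channel genes and above all controls in 6, beside 17.7% and 16.7% of all genes tested. The second share was close to the background. These were 11 of the 12 lower genes and all 6 higher genes. Taken in either direction, 18 channel genes (51.4%) passed, beside 37.5% of all genes, and 17 did not overlap between the groups, beside 34.4%. The median log2 fold change of the 35 genes was -0.17, and that of all genes tested 0.02. With library totals in place of TMM normalization, which moved the median of all genes to 0.15, the split was 9 lower and 8 higher. Many of the channel genes are long, and the share lower among all tested genes with a span over 100000 bases was 37.5%, beside 15.9% of shorter ones. Of the 19 tested channel genes over that span 9 were lower and 2 higher, and of the 16 shorter ones 3 were lower and 4 higher. The part of gene length in these counts was not tested beyond an offset for exon length and GC content, which gave 11 lower and 8 higher. In whole tissue, fewer cells of a type and less RNA per cell cannot be told apart, and this holds for every value below. Nothing in the labels says that the mice came from separate litters, so p-values measure the spread between these samples.

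**Figure D1:**
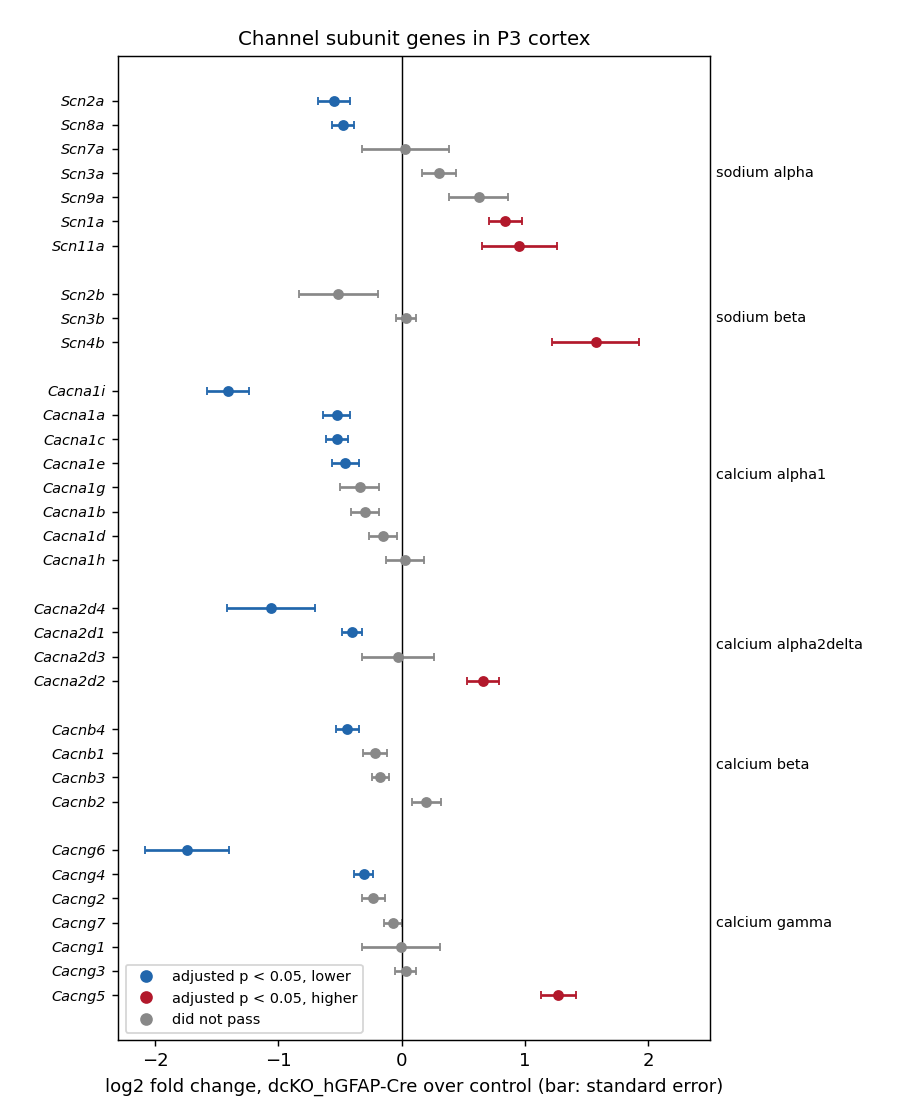
Log2 fold change (dcKO_hGFAP-Cre over control, x axis) of 33 tested channel genes, grouped by subunit class and ordered by fold change, with bars for the standard error from edgeR. Genes at an adjusted p under 0.05 are blue (lower, 11 drawn) or red (higher, 5 drawn) and the other 17 grey, and no calcium channel alpha1 gene is red.

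Sodium channel alpha subunits moved in opposite directions. Scn2a and Scn8a were lower in dcKO_hGFAP-Cre cortex, Scn1a and Scn11a were higher, and Scn3a, Scn9a and Scn7a did not pass the test. Scn2a (ENSMUSG00000075318), which encodes Nav1.2 of the immature axon initial segment, lies on chromosome 2 of mm10 from 65620771 to 65767447 on the plus strand. It read 212, 257, 238 and 222 CPM in control replicates 1 to 4 and 160, 136, 133 and 206 CPM in dcKO_hGFAP-Cre replicates 1 to 4. All mutants were below all controls, but mutant replicate 4 lay only just under the lowest control. The means were 232 ± 19.7 CPM (SD, n = 4) and 159 ± 33.96 CPM (SD, n = 4), with a log2 fold change of -0.55 (SE 0.13, adjusted p = 0.00628). Between the lane mates of lane 7, which are both replicates numbered 4, the log2 ratio was -0.11, and it was -0.84 in lane 6 and -0.67 in lane 5.

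Scn1a (ENSMUSG00000064329) encodes Nav1.1, best known from fast-spiking inhibitory neurons, and lies on the same chromosome from 66270778 to 66440840 on the minus strand. It read 38.9, 38.1, 31.2 and 33.5 CPM in controls and 64.5, 69.7, 46.4 and 73.2 CPM in mutants. The groups did not overlap, and mutant replicate 3 was the one nearest to the controls. The mean rose from 35.4 ± 3.68 to 63.4 ± 11.9 CPM (SD, n = 4 each), and the log2 fold change was 0.84 (SE 0.13, adjusted p = 0.000515 by edgeR). Since Scn2a and Scn1a are near neighbours with opposite changes, the 250 bases before their RefSeq starts are shown (GRCm38.p6, 5′ to 3′ on the strand of the gene). The Scn2a stretch is chr2:65620519-65620768 (plus strand) and the Scn1a stretch chr2:66440838-66441087 (minus strand). RefSeq gave 2 starts for Scn2a, of which the more upstream was used, and 1 for Scn1a.
Scn2a: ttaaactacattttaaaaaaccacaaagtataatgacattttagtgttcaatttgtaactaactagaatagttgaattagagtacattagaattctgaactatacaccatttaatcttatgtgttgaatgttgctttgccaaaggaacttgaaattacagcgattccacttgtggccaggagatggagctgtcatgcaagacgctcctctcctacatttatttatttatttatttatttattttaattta
Scn1a: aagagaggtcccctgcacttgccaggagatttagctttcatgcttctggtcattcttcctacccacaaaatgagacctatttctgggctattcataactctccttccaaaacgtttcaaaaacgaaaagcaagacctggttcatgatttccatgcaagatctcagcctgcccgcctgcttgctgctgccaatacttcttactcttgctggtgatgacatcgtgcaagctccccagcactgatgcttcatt
The Scn2a stretch is 29.6% G and C and holds 2 CpG dinucleotides, and the Scn1a stretch is 46.8% G and C and holds 4. Capitals in these sequences mark GC boxes (GGGCGG on either strand), of which neither stretch has any.

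Scn8a, which encodes Nav1.6 of the mature initial segment and nodes of Ranvier, read 118, 115, 115 and 111 CPM in controls and 83.9, 72.4, 77.4 and 96.3 CPM in mutants. The controls were tightly grouped and every mutant lay below them. The log2 fold change was -0.47 (SE 0.09, adjusted p = 0.00145). Scn11a, a channel of pain-sensing neurons, was at 0.345 to 0.414 CPM in controls and 0.508 to 1.03 CPM in mutants. Its log2 fold change was 0.95 (SE 0.30, adjusted p = 0.0263), and it passed in 4 of 8 fits that each left out a library.

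Scn3a, the Nav1.3 channel of embryonic and newborn brain, read 121, 118, 107 and 105 CPM in controls and 148, 130, 102 and 175 CPM in mutants. Mutant replicate 3 lay below all controls and the other 3 mutants above them. Its log2 fold change of 0.30 (SE 0.14, adjusted p = 0.0996) did not pass. Scn9a, known from sensory neurons, gave 0.62 (SE 0.24, adjusted p = 0.0668) at 21.04 ± 5.14 CPM in controls and 32.3 ± 10.2 CPM in mutants (SD, n = 4 each), and passed as higher with the lane as a block (adjusted p = 0.0315) and with DESeq2 (0.0206) but not with limma-voom (0.0686). Scn7a, a sodium-sensing relative of the channels, was at 0.278 to 0.592 CPM in controls and 0.307 to 0.664 CPM in mutants, with a log2 fold change of 0.03 (SE 0.35, adjusted p = 0.958). The muscle channel Scn4a and the sensory neuron channel Scn10a were under the filter. Scn4a had 2, 2, 0 and 2 counts in controls and 1, 1, 5 and 2 in mutants, and Scn10a read 0.0920 to 0.444 CPM and 0.102 to 1.07 CPM.

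**Figure D2:**
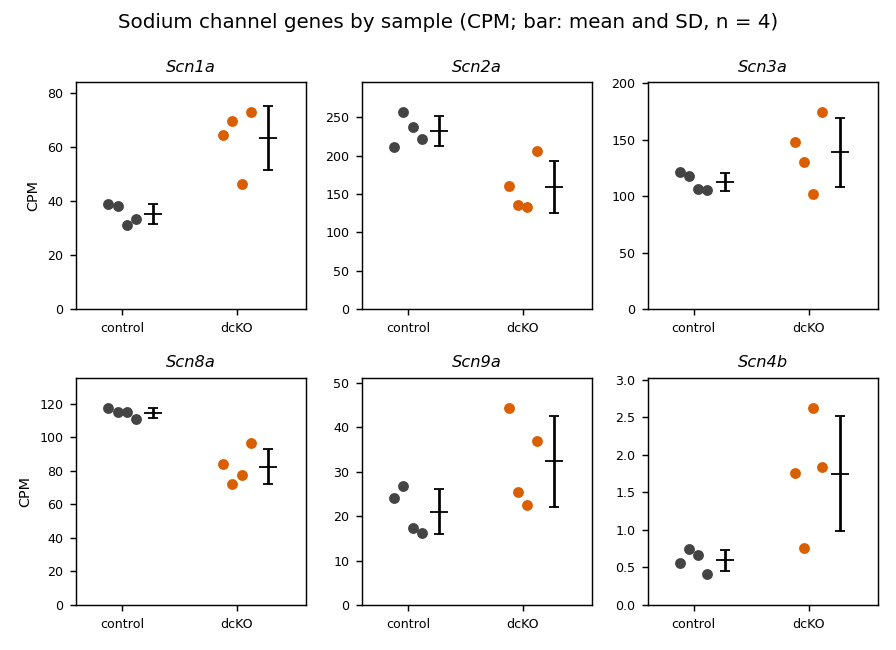
Normalized read count (CPM, y axis) of 6 sodium channel genes in each control and dcKO_hGFAP-Cre library, with points for samples and bars for the mean and SD (n = 4 per group). Scn2a and Scn8a have all mutant points below the controls, Scn1a and Scn4b have them above, and Scn3a and Scn9a overlap.

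Per base of exon, Scn2a remained the leading sodium channel alpha subunit in both groups. It read 18.2 RPKM (CPM per kilobase of exon) in controls and 12.5 in mutants, followed by Scn3a at 9.05 and 11.2, Scn8a at 7.28 and 5.23, Scn1a at 3.18 and 5.69 and Scn9a at 1.65 and 2.53. Scn8a ranked above Scn1a in controls, and their mutant means were close. The share of Scn2a in the summed level of the alpha subunits was 45.9% ± 2.63 in controls and 32.8% ± 2.21 in mutants, while that of Scn1a was 7.99% ± 0.664 and 15.0% ± 1.92 (SD, n = 4 each). Scn3a made up 22.8% ± 1.20 and 29.2% ± 1.23, Scn8a 18.3% ± 0.882 and 14.0% ± 1.62, and Scn9a 4.12% ± 0.807 and 6.60% ± 1.39 (SD, n = 4 each). For each of these 5 genes the shares of the mutants and controls did not overlap, including Scn3a and Scn9a, whose own levels did not pass the test. The summed level of all alpha subunits was 39.8 ± 2.27 RPKM in controls and 38 ± 7.27 RPKM in mutants (SD, n = 4 each), and the groups overlapped. Shares of a sum are not independent of each other and were not tested.

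Among the sodium channel beta subunits, cell-adhesion proteins that tune gating and placement of the alpha subunit, Scn4b was higher. Scn4b, best known from Purkinje cells and striatum, read 0.552, 0.739, 0.664 and 0.416 CPM in controls and 1.75, 0.763, 2.63 and 1.84 CPM in mutants. Mutant replicate 2 was just above the highest control. The log2 fold change was 1.57 (SE 0.35, adjusted p = 0.00421). Scn3b, the most abundant of the 4, was at 334 ± 20.6 and 342 ± 34.5 CPM (SD, n = 4 each), and its log2 fold change was 0.04 (SE 0.08, adjusted p = 0.769). Scn2b read 6.17 CPM in control replicate 1 against 16.7 to 17.5 CPM in the other controls and 7.29 to 13.9 CPM in mutants. Its log2 fold change of -0.52 (SE 0.32, adjusted p = 0.239) did not pass, but did when control replicate 1 was left out.

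Of the 8 tested calcium channel alpha1 genes 4 were lower, beside 18.9% of all genes tested, and none was higher, beside 18.6%. Their median log2 fold change was -0.40. Most of the 8 span over 100000 bases, a class in which 37.5% of all tested genes were lower. The T-type gene Cacna1i fell most, and the P/Q-type gene Cacna1a, the L-type gene Cacna1c and the R-type gene Cacna1e followed. Cacna1i (ENSMUSG00000022416; chromosome 15, 80287238 to 80398279, plus strand, mm10) encodes Cav3.3, a low-voltage-activated channel that supports burst firing. It read 65.4, 81.2, 100.1 and 98.9 CPM in controls and 27.4, 26.1, 35.5 and 40.8 CPM in mutants. The highest mutant was well below the lowest control. The means were 86.4 ± 16.4 and 32.4 ± 6.93 CPM (SD, n = 4 each), and the log2 fold change was -1.41 (SE 0.17, adjusted p = 0.00012 by edgeR). Within lanes 5, 6 and 7 its log2 ratio was -1.45, -1.50 and -1.28.

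The other T-type genes did not pass. Cacna1g (Cav3.1) was at 165 ± 18.0 CPM in controls and 130 ± 34.7 CPM in mutants (SD, n = 4 each), with a log2 fold change of -0.34 (SE 0.16, adjusted p = 0.114), and mutant replicate 4 lay within the control range at 180 CPM. Cacna1g passed as lower with the lane as a block (adjusted p = 0.0338) and not with DESeq2 (0.0769). Cacna1h (Cav3.2) gave 0.03 (SE 0.16, adjusted p = 0.901), and its sign turned in 4 of 8 fits that left out a library. Per base of exon the T-type genes read 17.2 (Cacna1h), 16.2 (Cacna1g) and 8.76 RPKM (Cacna1i) in controls and 17.6, 12.8 and 3.29 RPKM in mutants. The share of Cacna1i in the summed alpha1 level was 9.76% ± 2.19 in controls and 4.68% ± 0.909 in mutants, and that of Cacna1h 18.9% ± 2.28 and 24.7% ± 1.80 (SD, n = 4 each), without overlap in either gene.

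Cacna1a, whose Cav2.1 channel drives transmitter release at most central synapses, read 128, 110, 122 and 120 CPM in controls and 77.4, 74.3, 76.3 and 104 CPM in mutants. The first 3 mutants were close together, and replicate 4 lay between them and the controls. The log2 fold change was -0.53 (SE 0.11, adjusted p = 0.00231). Cacna1b, the N-type channel Cav2.2 that shares this role, was at 183 to 192 CPM in controls and read 146, 141, 126 and 195 CPM in mutants. Replicate 4 exceeded all controls and the other 3 mutants lay below them. Its log2 fold change of -0.29 (SE 0.11, adjusted p = 0.0590) did not pass. Cacna1b passed as lower with the lane as a block (adjusted p = 0.0261), DESeq2 (0.0471) and limma-voom (0.0461). It did not pass with library totals (0.236) or the offset for GC content and exon length (0.327). Of the 8 fits that left out a library, it passed in 1. Cacna1e, the R-type channel Cav2.3 of dendrites and spines, read 211, 207, 163 and 168 CPM in controls and 140, 117, 134 and 154 CPM in mutants. All mutants were below all controls, and the log2 fold change was -0.46 (SE 0.11, adjusted p = 0.00583).

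Cacna1c encodes Cav1.2, the L-type channel that couples activity to transcription. It read 128, 128, 145 and 126 CPM in controls and 93.1, 85.5, 82.7 and 104 CPM in mutants. The groups did not overlap, and the log2 fold change was -0.53 (SE 0.09, adjusted p = 0.000662). The second neuronal L-type gene, Cacna1d, gave -0.15 (SE 0.11, adjusted p = 0.322), with mutant replicate 4 within the control range at 74.3 CPM. The retinal and muscle L-type genes Cacna1f and Cacna1s were under the filter. Cacna1f had 5, 3, 4 and 7 counts in controls and 8, 8, 10 and 16 in mutants, and Cacna1s had 6, 5, 6 and 6 counts and 11, 5, 3 and 12. The summed level of the alpha1 genes was 90.5 ± 5.45 RPKM in controls and 70.9 ± 12.96 RPKM in mutants (SD, n = 4 each), and mutant replicate 4, at 89.6 RPKM, reached the control range.

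**Figure D3:**
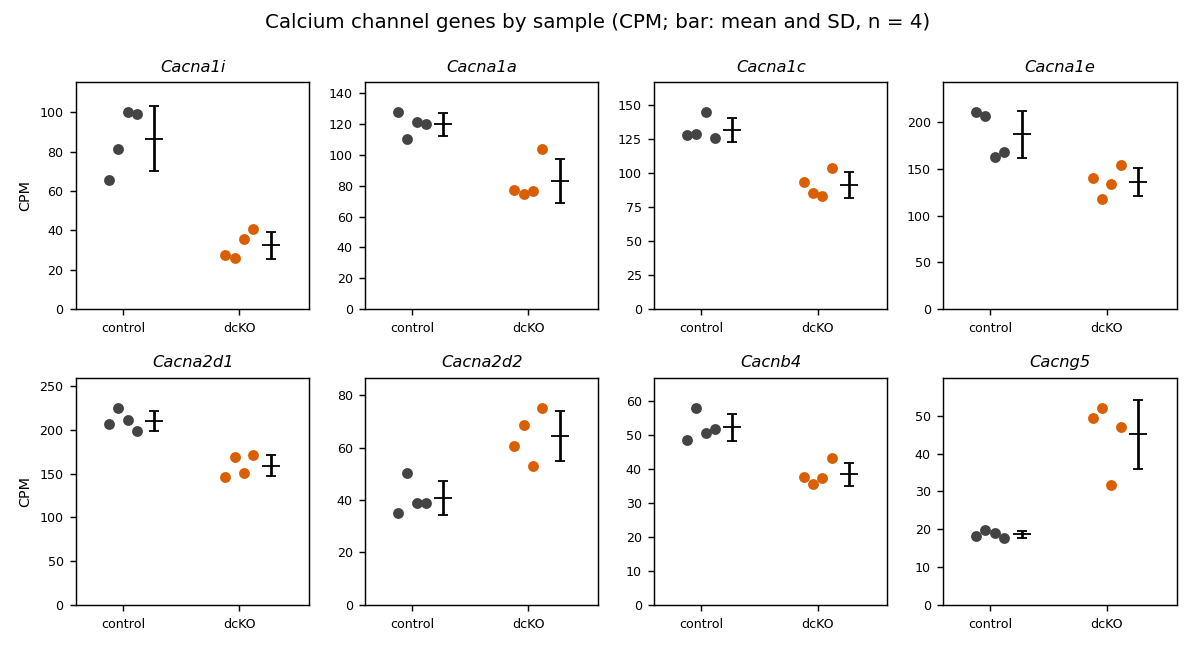
Normalized read count (CPM, y axis) of 8 calcium channel genes in each control and dcKO_hGFAP-Cre library, with points for samples and bars for the mean and SD (n = 4 per group). The 6 lower genes, led by Cacna1i, and the 2 higher genes Cacna2d2 and Cacng5 show no overlap between the groups.

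The alpha2delta subunits, which carry alpha1 to the membrane and bind gabapentin in the case of the products of Cacna2d1 and Cacna2d2, changed in opposite directions. Cacna2d1 read 207, 226, 212 and 198 CPM in controls and 147, 169, 151 and 171 CPM in mutants, with all mutants below all controls. Its log2 fold change was -0.40 (SE 0.08, adjusted p = 0.00196). Cacna2d2 read 34.8, 50.2, 39.0 and 39.0 CPM in controls and 60.7, 68.6, 52.9 and 75.2 CPM in mutants. Every mutant was above every control, and the log2 fold change was 0.66 (SE 0.13, adjusted p = 0.00194). The share of Cacna2d1 in the summed level of the class was 56.6% ± 2.31 in controls and 45.0% ± 5.49 in mutants, and that of Cacna2d2 17.0% ± 1.45 and 28.4% ± 4.90 (SD, n = 4 each). The summed level was 30.01 ± 2.38 and 28.6 ± 1.72 RPKM (SD, n = 4 each).

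Cacna2d3 varied widely in mutants, at 87.0, 33.2, 90.7 and 56.5 CPM beside 57.8 to 75.3 CPM in controls. The mutants lay on both sides of the controls, and the log2 fold change was -0.03 (SE 0.29, adjusted p = 0.943). Cacna2d4, known from photoreceptors, was at 0.729 to 0.967 CPM in controls and 0.181 to 0.580 CPM in mutants. Its log2 fold change of -1.06 (SE 0.36, adjusted p = 0.0347) passed in 2 of 8 fits that left out a library.

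Of the 4 beta subunits, cytoplasmic partners that bring alpha1 to the surface and shift its gating, Cacnb4 alone passed the main test. It read 48.6, 58.0, 50.5 and 51.7 CPM in controls and 37.6, 35.5, 37.4 and 43.2 CPM in mutants. The groups did not overlap, and the log2 fold change was -0.44 (SE 0.09, adjusted p = 0.00264). A noncoding transcript on the opposite strand, A430018G15Rik, covers 16.0% of the exon bases of Cacnb4, and since the strand setting of the counting is not given in the sources used here, reads there cannot be told apart. Cacnb3 was the most abundant member of the class, at 72.7 RPKM in controls and 64.5 RPKM in mutants, and gave -0.17 (SE 0.07, adjusted p = 0.0749), with an adjusted p of 0.0473 in DESeq2. Cacnb1 gave -0.22 (SE 0.10, adjusted p = 0.0927) and Cacnb2 0.20 (SE 0.12, adjusted p = 0.207). Whether these differ from the change in Cacnb4 was not tested.

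Among the gamma genes Cacng5 was higher and Cacng4 and Cacng6 were lower. Cacng5 (ENSMUSG00000040373; chromosome 11, 107874605 to 107915055, minus strand, mm10) encodes an atypical AMPA receptor partner. It read 18.3, 19.7, 19.0 and 17.6 CPM in controls and 49.3, 52.1, 31.6 and 47.1 CPM in mutants. The lowest mutant, replicate 3, was well above the highest control. The means were 18.6 ± 0.871 and 45.0 ± 9.19 CPM (SD, n = 4 each), and the log2 fold change of 1.27 (SE 0.14, adjusted p = 3.47e-05 by edgeR) had the smallest adjusted p of the family. Cacng5 and Cacna1i changed most among the channel genes with a mean of at least 10 CPM, and the 250 bases before their RefSeq starts are shown with GC boxes in capitals, at chr15:80286988-80287237 (plus strand) for Cacna1i and chr11:107915056-107915305 (minus strand) for Cacng5.
Cacna1i: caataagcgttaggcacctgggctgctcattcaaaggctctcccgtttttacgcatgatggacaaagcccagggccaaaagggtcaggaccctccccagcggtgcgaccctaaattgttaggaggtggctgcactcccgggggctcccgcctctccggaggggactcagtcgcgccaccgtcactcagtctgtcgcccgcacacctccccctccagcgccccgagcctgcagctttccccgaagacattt
Cacng5: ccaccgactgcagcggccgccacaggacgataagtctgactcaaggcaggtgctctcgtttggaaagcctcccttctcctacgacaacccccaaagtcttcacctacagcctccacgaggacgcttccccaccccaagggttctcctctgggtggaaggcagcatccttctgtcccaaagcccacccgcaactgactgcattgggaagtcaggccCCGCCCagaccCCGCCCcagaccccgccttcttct
Both are rich in G and C, at 62.4% with 16 CpG dinucleotides for Cacna1i and 62.0% with 12 for Cacng5, and the 2 GC boxes of Cacng5 lie close together near the start. RefSeq gave 2 starts for Cacng5, of which the more upstream was used, and 1 for Cacna1i.

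Cacng4, a typical AMPA receptor regulator and the leading gamma gene per base of exon (79.4 RPKM in controls, 64.0 RPKM in mutants), read 274, 290, 302 and 269 CPM in controls and 212, 223, 222 and 258 CPM in mutants. The groups did not overlap, with mutant replicate 4 nearest to the controls. The log2 fold change was -0.31 (SE 0.08, adjusted p = 0.00957), and Cacng4 did not pass with library totals in place of TMM. Cacng6, a relative of the muscle gamma subunit, was at 0.967 to 1.20 CPM in controls and 0.181 to 0.556 CPM in mutants, a log2 fold change of -1.74 (SE 0.34, adjusted p = 0.00184). Cacng2 (stargazin) gave -0.23 (SE 0.09, adjusted p = 0.0709), Cacng7 -0.07 (SE 0.07, adjusted p = 0.490) and Cacng3 0.03 (SE 0.08, adjusted p = 0.791). The muscle gamma subunit Cacng1 was at 1.33 to 2.53 CPM in controls and 1.12 to 3.22 CPM in mutants, and its log2 fold change was -0.0047 (SE 0.31, adjusted p = 0.992). The share of Cacng5 in the summed gamma level was 2.77% ± 0.134 in controls and 7.25% ± 1.47 in mutants, and that of Cacng4 45.2% ± 1.502 and 39.5% ± 1.70 (SD, n = 4 each).

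**Figure D4:**
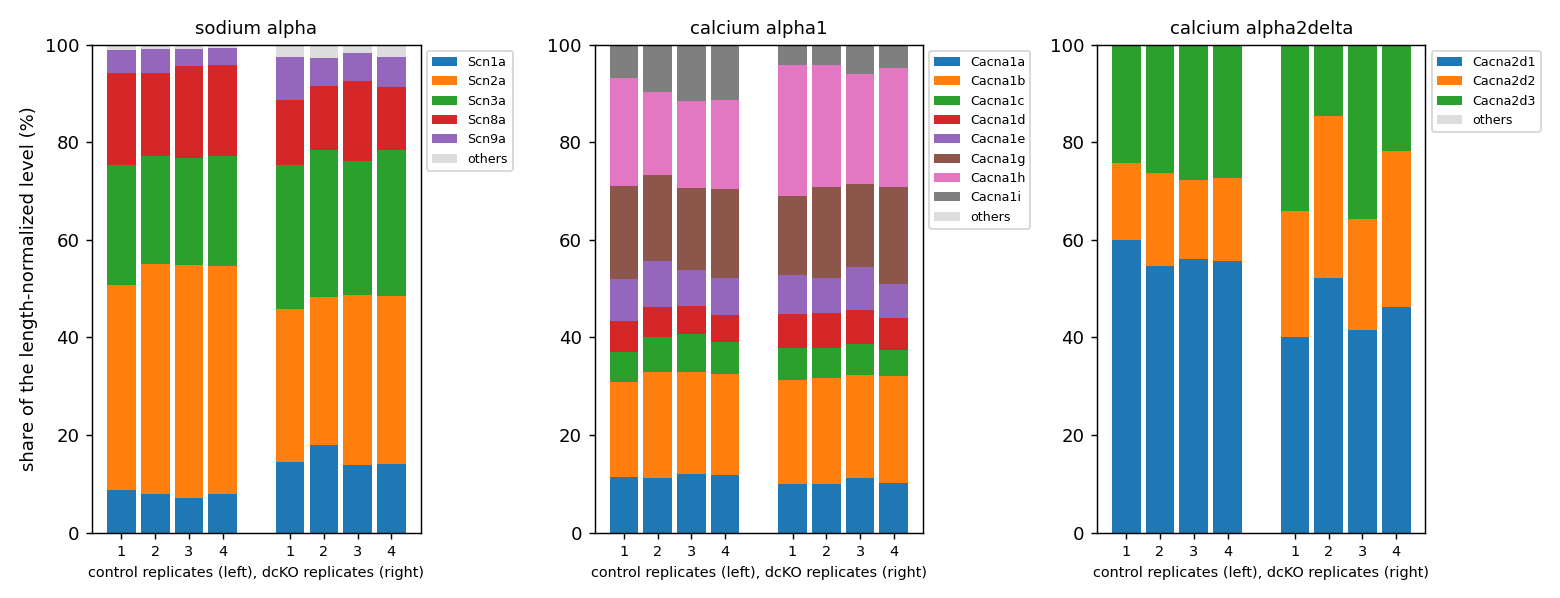
Share of each subunit gene in the summed length-normalized level (RPKM) of its class (y axis, %) in each library, with control replicates on the left and dcKO_hGFAP-Cre replicates on the right of each panel and genes under 3% in both groups pooled in grey. Scn2a takes 41.97% to 47.7% of the sodium alpha level in controls and 30.5% to 34.9% in mutants, and Cacna1i shrinks from 6.73% to 11.5% of the alpha1 level to 4.05% to 5.98%.

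All 18 genes that passed kept their direction in each of lanes 5, 6 and 7, with a control and a mutant in each of lanes 6 and 7. For the 17 of them whose groups did not overlap this had to be so, since the lanes divide the same libraries. Mutant replicate 4 was the mutant nearest to the controls in 9 of the 12 lower genes, and replicate 3 in 4 of the 6 higher genes. In the fits that left out a library, 15 of the 18 passed each time, and the exceptions included Cacna2d4 and Scn11a. For each of the 17 genes whose groups did not overlap, the exact two-sided permutation test on CPM gave p = 0.0286, the smallest that 4 against 4 samples allow. This test gives that value for any gene without overlap, so it adds nothing to the separation itself.

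Many of the genes lie beside each other, and 19 of the 39 fall into 7 groups of neighbours with gaps under 1000000 bases. In the sodium channel group of chromosome 2, Scn3a, Scn2a, Scn1a, Scn9a and Scn7a lie in that order within 1327797 bases, and Scn2a, at -0.55, was the only one of the 5 that fell. Scn1a, at 0.84, rose, and Scn3a, Scn9a and Scn7a gave 0.30, 0.62 and 0.03 without passing. On chromosome 11, Cacng1, Cacng4 and Cacng5 lie within 211838 bases, where Cacng4 fell and Cacng5 rose. The pair Scn2b and Scn4b lies within 36371 bases of chromosome 9, and Cacng7 and Cacng6 within 102713 bases of chromosome 7. In each of these pairs a single gene passed, Scn4b upward and Cacng6 downward. Cacna1c and Cacna2d4, within 765168 bases of chromosome 6, both fell. Whether neighbours changed differently from each other was not tested.

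**Figure D5:**
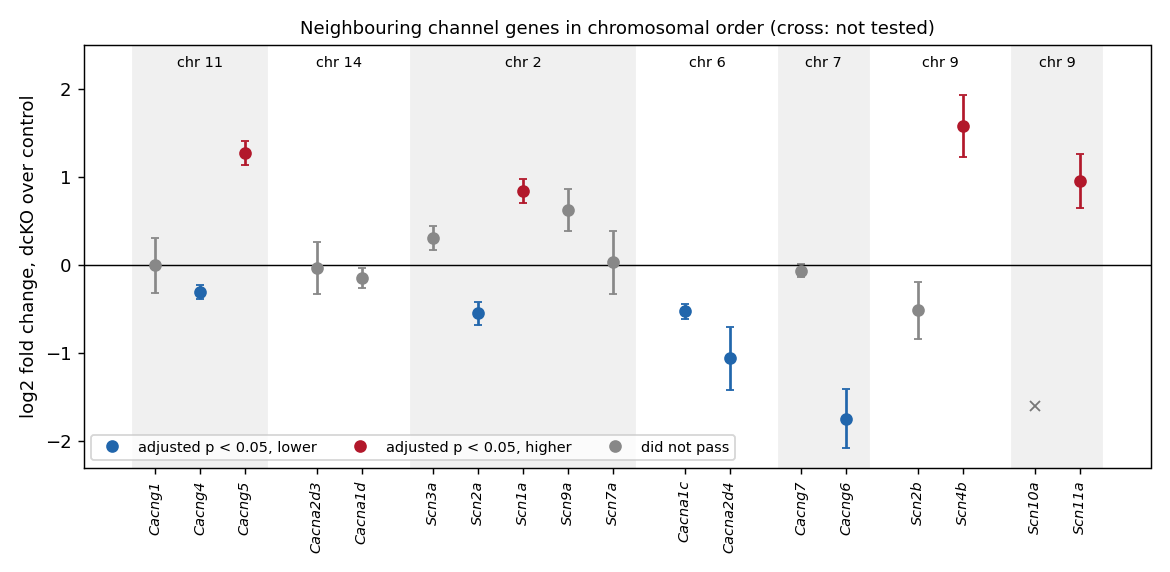
Log2 fold change (dcKO_hGFAP-Cre over control, y axis, bars for the standard error) of 18 of the channel genes that lie in 7 groups of neighbours, in chromosomal order with equal spacing. Blue genes were lower and red genes higher at an adjusted p under 0.05, grey genes did not pass, and the cross marks Scn10a, which was not tested and whose height has no meaning.

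RefSeq gave promoter windows of 300 bases (250 before to 50 after a start) for 29 of the 39 genes, 40 windows in all. The RE1 element, the site of the neuronal gene repressor REST, was searched on both strands as its left part (TTCAGCACC), its right part (GGACAGCGC) and the whole element, in which any 2 bases separate these parts and a C follows. None of the 40 windows held any of these, beside 0.371%, 0.405% and 0.00304% of all 32851 windows, which says only that these letters are not in these windows. A GC box (GGGCGG, both strands) was in 16 of the 40 windows, or 40.0%, beside 35.7% of all windows. A TATA box (TATAAA, both strands) was in 2, or 5%, beside 13.6%. GC and TATA boxes were chosen for the search after the values were known.

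Genes that work with these channels were described from 3 lists. Their counts stand beside 18.9% lower and 18.6% higher among all genes tested. Among tested genes with a span over 100000 bases these shares were 37.5% and 13.8%. Of 12 sodium channel partners and axon initial segment genes, all tested, 7 were lower and 1 higher, with a median log2 fold change of -0.29. The adhesion molecules Cntn1 (-0.83, SE 0.12, adjusted p = 0.000324) and Nrcam (-0.77, SE 0.09, adjusted p = 4.96e-05) fell most, and Ank2, Nfasc, Ank3, Fgf12 and Nedd4l were also lower. Cntnap2, which clusters potassium channels beside the node, rose from 103 ± 8.34 to 161 ± 4.33 CPM (SD, n = 4 each; log2 fold change 0.64, SE 0.08, adjusted p = 6.59e-05 by edgeR). Of 21 calcium channel auxiliary and presynaptic genes 20 were tested, with 10 lower, 2 higher and a median of -0.37. The largest falls were in Ryr2 and Itpr1, which encode calcium release channels of internal stores, while their relatives Ryr1 (-0.39, adjusted p = 0.157) and Ryr3 (-0.38, adjusted p = 0.121) did not pass. Ryr2 read 71.8 to 89.7 CPM in controls and 30.3 to 46.2 CPM in mutants (-1.15, SE 0.13, adjusted p = 3.51e-05), and Itpr1 92.6 to 155 and 53.7 to 69.7 CPM (-1.06, SE 0.14, adjusted p = 0.00022). The active-zone genes Erc2 (-0.44), Rims1 (-0.38) and Rims2 (-0.38) and the calmodulin gene Calm3 (-0.28) were lower as well. The rises were Stac3 (0.84) and Rrad (0.72), both low genes. Of 5 genes of the sodium leak channel complex, 4 were matched and tested. The pore gene Nalcn (0.41, adjusted p = 0.00462) and its scaffold Unc80 (0.63, adjusted p = 0.0117) were higher, and Nalf1, listed in the annotation as Fam155a, was lower (-0.29, adjusted p = 0.00732).

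Markers of the cells that could hold these channels were counted in the same way. Among all genes tested 18.9% were lower and 18.6% higher, with a median log2 fold change of 0.02. A count near these shares does not set a list apart. Of 10 pan-neuronal markers 8 were lower and none higher (median log2 fold change -0.50), and their summed level was 9897 to 10870 CPM in controls and 7374 to 8140 CPM in mutants. Of 10 markers of cortical excitatory neurons 8 were lower and none higher (-0.87), with sums of 2010 to 2235 and 1144 to 1312 CPM. Of 12 markers of GABAergic interneurons 11 were higher and none lower (0.72), with sums of 728 to 755 and 1116 to 1237 CPM. Of 10 markers of striatal projection neurons 6 were higher and none lower (1.86), with sums of 222 to 322 and 455 to 942 CPM, and of 8 thalamic markers 4 were higher and 1 lower (0.51), with sums of 99.7 to 111 and 113 to 161 CPM. The sums of each of these neuronal lists did not overlap between the groups, nor did those of the oligodendrocyte precursor and microglia lists. The levels of 17 of the 35 tested channel genes did not overlap either, beside 34.4% of all genes tested. Oligodendrocyte precursor markers were lower in 8 of 9 (-0.85; sums of 483 to 518 and 269 to 350 CPM) and microglia markers higher in 6 of 8 (0.88; 99.2 to 128 and 187 to 234 CPM). Endothelial and pericyte markers were lower in 3 of 8 and higher in none (-0.45; 345 to 406 and 242 to 364 CPM). Of 10 astrocyte and radial glia markers 1 was lower and 1 higher (-0.04). Their sums were 1967 to 2108 CPM in controls and 1677, 1802, 3030 and 1452 CPM in mutant replicates 1 to 4. Replicate 3 thus lay above all controls and the other mutants below them. Choroid plexus markers were higher in 3 of 6 (3.48), with sums of 2.99 to 12.96 CPM in controls and 617, 1179, 22.5 and 7.52 CPM in mutant replicates 1 to 4. Of the 10 skeletal muscle markers 6 were tested, with 1 lower and 1 higher (0.25; 14.3 to 15.9 and 14.6 to 16.5 CPM), none of the 4 tested of 8 vascular smooth and heart muscle markers passed (0.20; 5.66 to 9.53 and 6.88 to 12.1 CPM), and none of the 5 blood markers passed (-0.0017; 53.5 to 73.1 and 37.1 to 130 CPM). No listed marker was at 0 in every library. The part of these markers' cells in the channel results was not tested.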

How the data were processed

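RNA of the P3 cortex of 4 control and 4 dcKO_hGFAP-Cre mice was isolated with TRIZOL, and the authors made libraries with the TruSeq RNA v2 kit, aligned reads to mm10 and counted them per gene with featureCounts. The deposited values are raw counts per Ensembl gene, with no normalization. The aligner, annotation and strand setting are not given in the sources used here. Total counts per library were 21126713 to 31805395 in control and 22002784 to 32110285 in dcKO_hGFAP-Cre libraries, and the floor of 3 counts covers counting error only. Symbols, exon lengths and coordinates came from GENCODE M21 of mm10, which matched 48349 of 48709 genes. Its symbol Fam155a was used for Nalf1.

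Counts were fitted for all genes with edgeR 4.0.16 (R 4.3.3), TMM normalization, the default filter (minimum count 10) and the robust quasi-likelihood F test, without a block, with Benjamini-Hochberg adjustment and a threshold of 0.05. The study itself used DESeq2. Each standard error was derived from a gene's fold change and F value. RPKM used the union of exons. Single genes were also compared with exact two-sided permutation tests over 70 arrangements. The scripts were tested on simulated counts. Promoter sequences came from RefSeq for the same build. Protein sequences were not used here.

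The channel genes and all gene lists were chosen with earlier results of these data known. Channel genes matching the symbol rule are named, but some genes that the naming rule covers are not reported here. Those past the threshold with a mean of at least 1 CPM have a value given for each library. Except for Ryr1 and Ryr3, the genes named from the partner lists are past the threshold. Alternatives were DESeq2 1.42.0, limma-voom (limma 3.58.1), DESeq2's size factors, library totals, other filters, a stricter threshold, blocks for replicate number or lane, an offset for GC content and exon length, the longest transcript in place of the union of exons, and leaving out each library. Replicates of a group differed by more than the sampling noise of the counts (chi-square per degree of freedom 9.35 to 51.4), so each was counted as 1 sample.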

Additional observations from a re-analysis of the deposited data

Results flagged for a closer look

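In 5 cases among 70 groups of 4 libraries (35 channel genes in each of the 2 groups), the highest or lowest library lay apart from the other 3 by a share of the group's range above Dixon's 95% limit. Chance gives about 1 such case in 20, or 3.5 in 70. Cacna1a read 104 CPM in dcKO_hGFAP-Cre replicate 4 and 74.3 to 77.4 CPM in the other mutants. Cacna1c read 144.7 CPM in control replicate 3 and 125.5 to 128.4 CPM in the other controls. Cacng2 read 58.1 CPM in control replicate 1 and 70.5 to 72.7 CPM in the others, and its adjusted p fell below the threshold without that library. Cacng7 read 151.1 CPM in control replicate 2 and 164.4 to 165.8 CPM in the others. Scn2b read 6.17 CPM in control replicate 1 and 16.7 to 17.5 CPM in the others, and it passed the test as lower when that library was left out.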

How the results depend on the processing

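The main counts of 12 lower and 6 higher channel genes became 13 and 6 with DESeq2, 13 and 6 with limma-voom, 12 and 6 with DESeq2's size factors, 9 and 8 with library totals, 13 and 5 without a filter, 10 and 5 with at least 10 counts in every library, 11 and 8 with the offset for GC content and exon length, and 10 and 5 at an adjusted p under 0.01. With at least 10 counts in every library, 3 genes that passed the main test were not tested, and none of the others lost significance. Leaving out single libraries gave 10 to 16 lower and 5 to 8 higher, with 16 lower without dcKO_hGFAP-Cre replicate 4. Under library totals Cacna2d4 and Cacng4 were among those that lost significance and Scn3a and Scn9a gained it as higher, with a median log2 fold change of all genes of 0.15 in place of 0.02, and the split among all genes was 2102 lower and 4584 higher in place of 3128 and 3074. With DESeq2 Cacna2d4 and Scn11a were lost and Cacna1b, Cacnb3 and Scn9a were gained, limma-voom gained Cacna1b, the fit without a filter gained Cacna1b and lost Scn11a, and the offset gained Scn3a and Scn9a as higher and lost Cacna2d4. With the longest transcript in place of the union of exons, the shares of Cacna2d1 overlapped between the groups.

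The replicate numbers are shared by the groups, but correlations of same-numbered samples' deviations were 0.171, -0.068, 0.213 and -0.024, so the numbers were not taken to pair the mice. With the replicate block 14 were lower and 7 higher, with a lane block 14 and 7, where both blocks added Cacna1b and Cacna1g as lower and Scn9a as higher, and with the replicate block and the GC and length offset 11 and 8.

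Reversals of sign touched only genes that did not pass the test. With the offset, alone and with the block, log2 fold changes were 0.017 and 0.016 for Cacna1d, 0.087 and 0.0006 for Cacna2d3, -0.025 and -0.026 for Cacng3 and -0.035 and -0.049 for Scn7a. Library totals gave 0.094 for Cacna2d3, 0.11 for Cacng1 and 0.052 for Cacng7, at least 10 counts in every library gave 0.0079 for Cacng1, and DESeq2 gave -0.0027 for Scn7a. Leaving out single libraries gave -0.088 to 0.16 for Cacna1h, -0.22 to 0.18 for Cacna2d3, -0.39 to 0.20 for Cacng1, -0.0039 to 0.067 for Cacng3, -0.22 to 0.18 for Scn7a and -0.024 to 0.074 for Scn3b. The cause of these changes was not tested. At 4 samples a group, differences of genes under 1 CPM (Cacna2d4, Cacng6, Scn11a, Scn7a) rest on few counts.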
